A study of Mus musculus with 17 samples.

Results

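Glucose breakdown and the response to low oxygen were followed in 36 named genes: glucose and lactate transporters, the enzymes of glycolysis, regulators of its flux, the hypoxia-inducible factors (HIF) with their oxygen sensors, and other known hypoxia targets. A gene was measured where the deposited table holds a transcript cluster, the array's gene-level unit, that carries its symbol and no other. That was the case for 30 of the 36, out of 14807 genes with such a transcript cluster and 23238 transcript clusters in all. Gpi1, Gapdh, Pgk1, Pgam1, Eno1 and Ldha were not analysed here, so several central steps of the pathway have no value below.

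RNA came from cells cut by laser from lung sections of wild type mice and of SPC/cRaf transgenic mice, in which a surfactant protein C promoter drives Raf in alveolar epithelium and lung tumours form. It was measured on 17 Affymetrix mouse exon arrays. Non-transgenic lung (wild type) gave 5 arrays from animals of 7 to 11 months, 2 labelled male and 3 female. Transgenic tissue without a visible lesion, called unaltered here, and dysplasia, a lesion that precedes tumours, gave 4 arrays each. Both come from 4 shared animal labels, of males 5 to 6 months old. Adenocarcinoma of transgenic mice gave 4 arrays from animals of 11.5 to 14 months, 3 labelled male and 1 female. In each transgenic group 1 array carries the names of 2 animals. Age ranges overlap only between unaltered tissue and dysplasia, so in every other comparison age and tissue cannot be told apart.

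Glycolysis splits glucose into pyruvate in the cytosol, and lactate dehydrogenase and the monocarboxylate transporters dispose of the product when mitochondria do not take it up. HIF factors are made of an unstable alpha subunit and a stable partner. When oxygen is present, prolyl hydroxylases mark the alpha subunit for destruction, and when it is short the factor binds the short sequence ACGTG or GCGTG near its target genes. Tumour cells often run glycolysis fast whether or not oxygen is short, and the normal lung, rich in blood vessels, holds much of the HIF alpha subunit Epas1.

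The 300 bases around the start of 4 members are shown because these genes rose in adenocarcinoma and their windows hold the core sequence of a HIF site. Capitals mark ACGTG or GCGTG on the printed strand and their reverse complements CACGT and CACGC, with overlapping matches merged. Each sequence runs 5′ to 3′ along the gene, from 250 bases before to 50 bases after its RefSeq start in GRCm38.p6.
Ankrd37 (chr8:45999801-46000100, minus strand): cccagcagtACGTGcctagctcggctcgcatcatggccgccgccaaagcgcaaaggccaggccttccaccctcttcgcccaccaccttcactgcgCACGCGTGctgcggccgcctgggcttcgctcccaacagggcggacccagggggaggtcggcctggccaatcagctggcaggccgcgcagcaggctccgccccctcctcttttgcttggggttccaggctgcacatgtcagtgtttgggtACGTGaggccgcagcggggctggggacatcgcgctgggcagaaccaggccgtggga
Slc2a1 (chr4:119108495-119108794, plus strand): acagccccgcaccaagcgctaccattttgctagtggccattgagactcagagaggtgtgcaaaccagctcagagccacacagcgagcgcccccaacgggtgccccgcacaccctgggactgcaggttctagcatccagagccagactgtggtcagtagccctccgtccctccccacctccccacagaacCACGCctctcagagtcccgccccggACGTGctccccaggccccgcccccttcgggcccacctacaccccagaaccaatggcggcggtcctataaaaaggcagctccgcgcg
Hk2 (chr6:82774405-82774704, minus strand): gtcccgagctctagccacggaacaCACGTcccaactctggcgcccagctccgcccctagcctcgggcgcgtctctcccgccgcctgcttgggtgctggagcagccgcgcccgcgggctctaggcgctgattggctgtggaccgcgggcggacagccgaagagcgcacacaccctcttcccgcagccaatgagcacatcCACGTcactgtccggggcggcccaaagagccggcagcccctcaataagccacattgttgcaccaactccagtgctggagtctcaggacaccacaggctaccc
Pfkl (chr10:78009758-78010057, minus strand): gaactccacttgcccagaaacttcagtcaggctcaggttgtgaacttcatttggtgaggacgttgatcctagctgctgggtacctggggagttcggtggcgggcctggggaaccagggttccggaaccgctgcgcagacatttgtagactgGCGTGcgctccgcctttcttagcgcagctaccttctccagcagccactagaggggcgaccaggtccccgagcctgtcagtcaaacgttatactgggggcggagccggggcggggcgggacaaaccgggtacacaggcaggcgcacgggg

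The Ankrd37 window holds 3 merged matches, whose first bases lie at -241, -155 and -6 from the start, those of Slc2a1 and Hk2 hold 2 each, and that of Pfkl holds 1. A window was given for 27 of the 30 measured members, and 25 of them (92.6%) held at least 1 match. Among all 27025 genes with a window, 12628 (46.7%) held 1. At least 2 matches were found in 19 members (70.4%), against 19.2% of all genes. Eno2 and Tpi1 had no match, and Slc2a3, Epas1 and Ndrg1 had no window. A gene with several windows counts by the one with most matches. Matches of this length are common, those of ACGTG include the E-box CACGTG, and many members were listed because they are known HIF targets. The counts therefore describe the windows and carry no test, and a match is not a binding site.

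The members' levels were compared between all 6 pairs of groups in 1 limma fit, and a gene is called where its Benjamini-Hochberg adjusted p over all transcript clusters is under 0.05. Adenocarcinoma differed most. Against non-transgenic lung 12 of 30 members rose and 4 fell, or 53.3%, where 30.0% of all transcript clusters and 39.2% of the genes with 1 symbol were called. Against unaltered tissue 15 rose and 4 fell, or 63.3%, against 26.9% of transcript clusters and 34.8% of genes. Against dysplasia 8 rose and 4 fell, or 40.0%, against 12.0% of transcript clusters and 16.0% of genes. In these 3 comparisons 13.6%, 16.8% and 4.48% of all transcript clusters were called higher and 16.4%, 10.1% and 7.48% lower. Among genes with 1 symbol, 17.7%, 21.2% and 5.75% were called higher and 21.4%, 13.6% and 10.2% lower. By role, adenocarcinoma minus non-transgenic lung had 1 of 4 transporters higher and 1 lower, 5 of 11 enzymes higher and 1 lower, 1 of 3 flux regulators higher and 1 lower, 2 of 5 HIF subunits and sensors higher and 1 lower, and 3 of 7 other hypoxia targets higher.

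The earlier tissues differed from each other in fewer members. Dysplasia had 5 members higher and 2 lower than unaltered tissue, or 23.3%, beside 20.4% of transcript clusters (15.1% higher, 5.32% lower) and 25.6% of genes (18.6% higher, 7.03% lower). Unaltered tissue had none higher and 4 lower than non-transgenic lung, or 13.3%, beside 14.3% of transcript clusters (2.47% higher, 11.8% lower) and 17.8% of genes (2.85% higher, 14.9% lower). At an unadjusted p under 0.05 that comparison had 0 members higher and 7 lower. The share of all transcript clusters at that unadjusted threshold is not given here, so these counts are no result about the members. Dysplasia had 3 higher and 5 lower than non-transgenic lung, or 26.7%, beside 17.5% of transcript clusters (7.62% higher, 9.86% lower) and 23.3% of genes (10.0% higher, 13.3% lower). The split of all calls depended on the scaling: of those for dysplasia minus unaltered tissue 73.9% were higher, against 48.5% with quantile and 53.1% with loess normalization, and for unaltered minus non-transgenic 17.3%, 54.2% and 50.3%. For adenocarcinoma minus dysplasia 37.5% were higher, against 49.2% with quantile normalization, and for adenocarcinoma minus unaltered 62.5%, against 49.3% with loess. The 3 shares of members called among the earlier tissues lie near those of all genes and are no result about the members as a set.

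The median log2 difference of the members was 0.20 for adenocarcinoma minus non-transgenic lung, 0.40 against unaltered tissue and 0.17 against dysplasia, where the medians over all transcript clusters were 0.01, 0.05 and 0.01. It was 0.16 for dysplasia minus unaltered tissue, -0.15 for unaltered minus non-transgenic and 0.05 for dysplasia minus non-transgenic, beside 0.06, -0.08 and -0.01. In all, 19 members were called in at least 1 comparison, 9 of them in all 3 with adenocarcinoma, and 11 in none. Comparisons that share a group share its arrays, so they are not separate evidence. In pieces of tissue, a change in the number of cells of a type and a change in RNA per cell cannot be told apart.

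**Figure D1:**
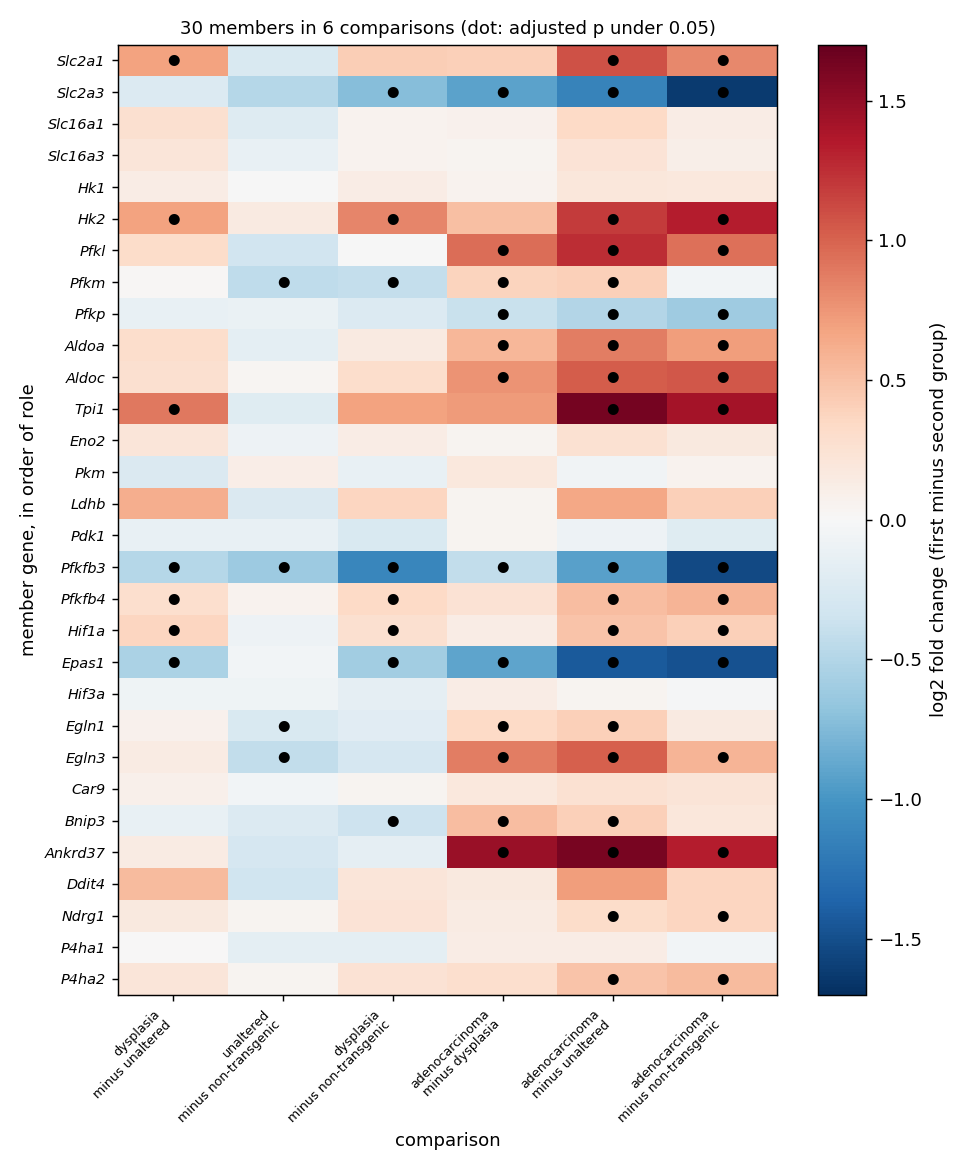
The 30 measured members (rows, in order of role) in the 6 comparisons (columns), coloured by log2 fold change of the first minus the second group, with a dot where the adjusted p is under 0.05. The 3 adenocarcinoma columns hold 16, 19 and 12 dots, and Slc2a3, Pfkp, Pfkfb3 and Epas1 are lower in all of them.

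The non-transgenic group was split. Replicates 4 and 5 correlated with replicates 1 to 3 at a Spearman rho of 0.975 to 0.98 over all transcript clusters, and rho within each set was at least 0.989. Both replicates lay above all of 1 to 3 for 18 of 30 members (60.0%), against 29.0% of transcript clusters and 37.7% of genes with 1 symbol. The widest gaps were for Ldhb and Ddit4, each 1.18 higher in replicates 4 and 5, and Tpi1, 1.14 higher. These 2 arrays were also the ones low in Eif2s3y and Kdm5d, genes of the Y chromosome, which disagreed with the sex given for 4 arrays (non-transgenic 2, 3 and 5 and adenocarcinoma 2). A sex term from these genes therefore sets only replicates 4 and 5 apart from all other arrays. It cannot tell sex from the split. Several results that use the non-transgenic group are therefore also given without replicates 4 and 5 or against them alone. Without them adenocarcinoma minus non-transgenic called 22 members (18 higher, 4 lower) and dysplasia minus non-transgenic 17 (11 higher, 6 lower). Unaltered minus non-transgenic still called 4, with Slc16a3 and Aldoc higher and Pfkm and Pfkfb3 lower. With only replicates 4 and 5 as the non-transgenic group, the 3 counts were 14, 8 and 13.

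Cell type markers moved with the tissue. Taken as the mean log2 value of a list, 12 endothelial markers stood at 11.28 to 11.38 in non-transgenic lung, 10.72 to 11.00 in unaltered tissue, 9.76 to 10.57 in dysplasia and 8.90 to 8.96 in adenocarcinoma, and all 12 fell in adenocarcinoma against each other group. The 10 alveolar type II markers, the cells in which the transgene is driven, went from 12.03 to 12.25 in non-transgenic lung to 12.86 to 12.90 in adenocarcinoma. Of 7 type I markers 5 fell and 1 rose between those groups, and 9 proliferation genes had means of 6.39 to 6.63 in non-transgenic lung, 7.29 to 7.82 in dysplasia and 7.34 to 7.45 in adenocarcinoma. Array medians were 6.67 to 6.85, and neutrophil markers, at 5.49 to 7.26, and cardiac muscle markers, at 5.08 to 7.35, were the lists that lay around or below them in every group. The part of these shifts in the results below was not tested.

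The 2 glucose transporters moved in opposite directions. For Slc2a1 (GLUT1), which carries basal glucose uptake in most cells, the log2 levels were 7.99, 8.12, 8.21, 8.60 and 8.94 in non-transgenic lung and 8.26, 8.10, 8.04 and 8.05 in unaltered tissue. Slc2a1 stood at 8.60, 8.87, 9.04 and 8.65 in dysplasia and at 9.22, 9.10, 9.17 and 9.28 in adenocarcinoma. Every lesion array was above every unaltered array, and the adenocarcinoma arrays were above all others. Slc2a1 rose by 0.68 ± 0.15 (SE, log2) from unaltered tissue to dysplasia (adjusted p = 0.00412), higher in 4 of 4 pairs, and by 1.08 ± 0.17 to adenocarcinoma (adjusted p = 0.000133). Against non-transgenic lung, adenocarcinoma was 1.77-fold higher (0.82 ± 0.16, adjusted p = 0.000841). That difference was 1.08 against replicates 1 to 3 alone and 0.43 against replicates 4 and 5 alone, both called. Dysplasia was 0.42 ± 0.16 above all 5 (adjusted p = 0.0912, not called) and 0.68 above replicates 1 to 3 (0.000483, called). Replicates 4 and 5 averaged 8.77, beside 8.79 in dysplasia. The step from dysplasia to adenocarcinoma was 0.40 ± 0.17 and did not pass (adjusted p = 0.157).

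For Slc2a3 (GLUT3), a high-affinity transporter of neurons and white blood cells, non-transgenic lung gave 7.26, 7.26, 7.46, 7.84 and 8.13 and unaltered tissue 7.29, 7.04, 7.04 and 7.03. Slc2a3 read 7.04, 6.98, 6.42 and 7.02 in dysplasia and 5.68, 6.15, 6.00 and 6.00 in adenocarcinoma. The adenocarcinoma arrays lay below all others. The gene fell by 1.63 ± 0.18 on the log2 scale from non-transgenic lung to adenocarcinoma, a 3.1-fold difference (adjusted p = 2.61e-06), and by 0.91 ± 0.19 from dysplasia to adenocarcinoma (adjusted p = 0.00447). Dysplasia was below non-transgenic lung (-0.73 ± 0.18, adjusted p = 0.00932), a call lost when only those 2 groups were fitted (adjusted p = 0.0559, the highest of 21 alternatives, whose lowest was 0.00135). Of 7 neutrophil markers, cells known for this transporter, 4 fell in adenocarcinoma against non-transgenic lung, and their mean was 6.14 to 6.40 there against 5.49 to 5.64 in adenocarcinoma. In unaltered tissue the neutrophil mean was 6.41 to 7.26, and Slc2a3 differed from non-transgenic lung by -0.49 ± 0.18 (adjusted p = 0.0798). That difference was -0.23 without non-transgenic replicates 4 and 5 (adjusted p = 0.316) and -0.89 against those 2 alone (0.00542, called). Lymphocyte markers had means of 7.54 to 7.71 in non-transgenic lung, 6.87 to 7.39 in unaltered tissue, 6.72 to 7.22 in dysplasia and 6.52 to 6.91 in adenocarcinoma. All 7 fell from non-transgenic lung to adenocarcinoma and 3 fell to unaltered tissue. The part of either cell type in the levels of Slc2a3 was not tested.

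Neither monocarboxylate transporter was called in the fit described above. Slc16a1 (MCT1) ranged from 8.36 to 9.37 and Slc16a3 (MCT4), the exporter of lactate in glycolytic cells, from 6.43 to 7.67 over the 17 arrays. For Slc16a3 the non-transgenic split set the answer: adenocarcinoma was 0.51 ± 0.07 higher than replicates 1 to 3 (adjusted p = 8.15e-05) and 0.51 lower than replicates 4 and 5 (adjusted p = 0.00283). Over all 5 the difference was 0.10 ± 0.21 (adjusted p = 0.769). With sex from the Y-linked genes as a covariate both genes were called higher in adenocarcinoma than in unaltered tissue, Slc16a1 by 0.34 (adjusted p = 0.0153) and Slc16a3 by 0.23 (0.0387). That covariate sets only non-transgenic replicates 4 and 5 apart, so its differences against non-transgenic lung are those against replicates 1 to 3. They were called for Slc16a1 (0.43, adjusted p = 0.00575) and Slc16a3 (0.51, 0.000273). For Slc16a1 replicates 4 and 5 averaged 9.23, above the mean of 8.91 in adenocarcinoma. Under the same covariate Slc16a1 was called between dysplasia and unaltered tissue (0.27, adjusted p = 0.0367).

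Of the hexokinases, which phosphorylate glucose at entry, Hk2 changed in 4 comparisons and Hk1 was called in none in the fit of all arrays. Hk2, the isoform that insulin and HIF induce, read 7.17, 7.35, 7.41, 7.31 and 7.65 in non-transgenic lung and 7.33, 7.40, 7.81 and 7.56 in unaltered tissue. In dysplasia Hk2 was spread widely, at 7.81, 8.38, 8.84 and 7.80, and in adenocarcinoma it stood at 8.90, 8.55, 8.67 and 8.74. The adenocarcinoma arrays were above all unaltered and non-transgenic arrays, and dysplasia replicate 3 reached their range. Hk2 was 2.53-fold higher in adenocarcinoma than in non-transgenic lung (1.34 ± 0.18, adjusted p = 2.21e-05) and 2.28-fold higher than in unaltered tissue (1.19 ± 0.19, adjusted p = 0.000153). From unaltered tissue to dysplasia it rose by 0.68 ± 0.16 (adjusted p = 0.00828), in 4 of 4 pairs by 0.24 to 1.04. Fitting those 2 groups alone ended that call, with a random replicate block for the animal (adjusted p = 0.0652) or a fixed one (0.0731). Leaving out the arrays of 2 animals ended it too (0.0932). Over 19 alternatives the adjusted p ran from 0.00247 to 0.0932. Dysplasia was also above non-transgenic lung (0.83 ± 0.18, adjusted p = 0.00372), a call lost against replicates 4 and 5 alone, where the difference was 0.73 ± 0.25 and the arrays did not overlap (adjusted p = 0.071, the highest of 21 alternatives, whose lowest was 0.00124). Hk1 ranged only from 8.10 to 8.52, and its difference of 0.18 ± 0.07 between adenocarcinoma and non-transgenic lung missed the threshold (adjusted p = 0.0553). It was called in 6 alternatives, among them quantile (0.27, adjusted p = 0.00608) and loess (0.24, 0.0117) normalization, without non-transgenic replicate 3 (0.0464) and against replicates 4 and 5 alone (0.29, 0.0139).

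Phosphofructokinase commits sugar to glycolysis, and its 3 genes went 3 ways. The liver-type subunit Pfkl read 8.44, 8.53, 8.44, 8.91 and 9.17 in non-transgenic lung, 8.43, 8.34, 8.25 and 8.51 in unaltered tissue, 8.61, 8.75, 8.71 and 8.70 in dysplasia and 9.72, 9.58, 9.62 and 9.64 in adenocarcinoma. The larger step came between dysplasia and adenocarcinoma, with no overlap: 0.95 ± 0.13, or 1.93-fold (adjusted p = 0.000183). Dysplasia was 0.31 ± 0.12 above unaltered tissue, also with no overlap and in 4 of 4 pairs, but was not called (adjusted p = 0.0744). That difference was called with those 2 groups alone (0.0234), with the filter on low values (0.0351) and with sex from the Y-linked genes (0.00261). Pfkl in adenocarcinoma was also compared with non-transgenic lung. The rise there was 0.94 ± 0.13 (adjusted p = 2.45e-05), and 1.17 without replicates 4 and 5 (adjusted p = 3.14e-08). Dysplasia was 0.22 above replicates 1 to 3 (adjusted p = 0.0394) and 0.35 below replicates 4 and 5 (adjusted p = 0.0229), and over all 5 the difference was -0.01 ± 0.13.

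The platelet-type subunit Pfkp went down. Its levels were 9.29, 9.42, 9.43, 9.52 and 9.15 in non-transgenic lung, 9.31, 9.26, 9.24 and 9.20 in unaltered tissue, 9.18, 9.11, 8.97 and 9.28 in dysplasia and 8.73, 8.76, 8.79 and 8.72 in adenocarcinoma. All adenocarcinoma arrays lay below every other array. Pfkp fell by 0.61 ± 0.08 against non-transgenic lung (adjusted p = 1.5e-05), by 0.50 ± 0.08 against unaltered tissue (adjusted p = 0.000246) and by 0.38 ± 0.08 against dysplasia (adjusted p = 0.00627). The last call was lost without the arrays that name 2 animals (adjusted p = 0.0577, the highest of 18 alternatives, whose lowest was 0.00247). The muscle-type subunit Pfkm was lowest in the middle tissues, at 7.84 to 8.01 in unaltered tissue and 7.74 to 8.14 in dysplasia, against 8.19 to 8.50 in non-transgenic lung and 8.26 to 8.38 in adenocarcinoma. It fell by 0.43 ± 0.08 from non-transgenic to unaltered tissue (adjusted p = 0.00472) and was 0.38 ± 0.09 higher in adenocarcinoma than in dysplasia (adjusted p = 0.0105). The first call was lost with quantile normalization (adjusted p = 0.0527, over 21 alternatives from 0.00241) and the second without the arrays of 2 animals (adjusted p = 0.0982, over 18 alternatives from 0.00417). Pfkm was also lower in dysplasia than in non-transgenic lung (-0.41 ± 0.08, adjusted p = 0.00242) and higher in adenocarcinoma than in unaltered tissue (0.40 ± 0.09, adjusted p = 0.00296). Those calls held in every alternative run.

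Both aldolase genes, whose product cuts fructose bisphosphate, rose in adenocarcinoma. Aldoa read 11.89, 11.39, 11.64, 11.96 and 12.13 in non-transgenic lung, 11.80, 11.51, 11.50 and 11.77 in unaltered tissue, 11.95, 11.71, 12.13 and 12.01 in dysplasia and 12.48, 12.60, 12.67 and 12.30 in adenocarcinoma. The adenocarcinoma arrays were the highest 4. Aldoa was 1.64-fold higher than in non-transgenic lung (0.71 ± 0.14, adjusted p = 0.00088) and 1.82-fold higher than in unaltered tissue (0.87 ± 0.15, adjusted p = 0.000285). Against dysplasia the rise was 0.56 ± 0.15 (adjusted p = 0.0197). It stayed at 0.49 to 0.64 over 18 alternatives, but the call was lost when some single arrays were left out. Without dysplasia replicate 1 or 2 or adenocarcinoma replicate 2 or 3 the adjusted p was 0.053, 0.0639, 0.0574 and 0.0652, and without the arrays of 2 animals it was 0.0731, over 18 alternatives from 0.00602.

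Aldoc, the brain-type aldolase and a known HIF target, gave 7.08, 7.27, 7.25, 7.98 and 8.16 in non-transgenic lung, 7.63, 7.58, 7.37 and 7.72 in unaltered tissue, 7.92, 7.86, 7.77 and 7.84 in dysplasia and 8.76, 8.49, 8.56 and 8.62 in adenocarcinoma. Adenocarcinoma stood clear of every other array. Aldoc was 2.09-fold higher in adenocarcinoma than in non-transgenic lung (1.06 ± 0.18, adjusted p = 0.000261), 2.05-fold higher than in unaltered tissue (1.03 ± 0.19, adjusted p = 0.000645) and 1.69-fold higher than in dysplasia (0.76 ± 0.19, adjusted p = 0.0164). The first difference was 1.41 against replicates 1 to 3 alone and 0.54 against replicates 4 and 5 alone, both called. The third was not called without the arrays of 2 animals (adjusted p = 0.098, over 18 alternatives from 2.02e-05). Dysplasia was 0.27 ± 0.17 above unaltered tissue, without overlap but not called (adjusted p = 0.28), though it was with those 2 groups alone (0.0482) and with sex from the Y-linked genes (0.0139). Dysplasia, with a mean of 7.85, was 0.65 above non-transgenic replicates 1 to 3 (adjusted p = 0.000144), while replicates 4 and 5 averaged 8.07.

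Triose phosphate isomerase, Tpi1, read 10.04, 9.68, 9.70, 11.06 and 10.82 in non-transgenic lung and 10.16, 9.49, 10.23 and 10.30 in unaltered tissue. Tpi1 read 10.93, 10.62, 11.42 and 10.83 in dysplasia and 11.71, 11.80, 11.93 and 11.28 in adenocarcinoma. Unaltered tissue lay below both lesions without overlap, while non-transgenic replicates 4 and 5 reached the range of dysplasia. The rise from unaltered tissue was 0.90 ± 0.26 to dysplasia (adjusted p = 0.0212), seen in 4 of 4 pairs, and 1.63 ± 0.30, or 3.1-fold, to adenocarcinoma (adjusted p = 0.000506). The dysplasia call was lost without dysplasia replicate 3 (adjusted p = 0.0794), without unaltered replicate 2 (adjusted p = 0.0912), without the arrays of 2 animals (adjusted p = 0.0894) and with no replicate block (adjusted p = 0.0579), over 19 alternatives from 0.00183. Against non-transgenic lung adenocarcinoma was 2.68-fold higher (1.42 ± 0.28, adjusted p = 0.000905), by 1.88 without replicates 4 and 5 and by 0.74 against those 2 alone (adjusted p = 0.0484). Dysplasia was 0.69 ± 0.28 above all 5 (adjusted p = 0.114, not called) and 1.15 above replicates 1 to 3 (0.00172, called). Replicates 4 and 5 averaged 10.94, beside 10.95 in dysplasia.

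The remaining enzymes measured were not called in the fit described above, though Eno2 and Ldhb were under other settings. Eno2, the neuronal enolase, ranged from 5.25 to 5.78, below the array medians, and was 0.26 higher in adenocarcinoma than in unaltered tissue. That difference was called with those 2 groups alone (adjusted p = 0.0341), with sex from the Y-linked genes (0.0247) and without unaltered replicate 2 (0.0362). Ldhb, a lactate dehydrogenase subunit, ranged from 8.32 to 9.69. Ldhb was 0.66 ± 0.28 higher in adenocarcinoma than in unaltered tissue (adjusted p = 0.103), called with those 2 groups alone (0.0423) and with the Y-linked sex term (0.00463). From unaltered tissue to dysplasia Ldhb differed by 0.62, called in those same settings (adjusted p = 0.0391 and 0.00512) and with the filter on low values (0.0449). Adenocarcinoma minus non-transgenic lung was 0.40 ± 0.27 over all 5 replicates (adjusted p = 0.293), 0.88 against replicates 1 to 3 (0.00144) and -0.30 against replicates 4 and 5 (0.342). A second transcript cluster with its symbol had group means of 6.02 to 6.31. The transcript cluster that carries the symbol Pkm, pyruvate kinase, ranged from 5.61 to 6.43, below the median of the arrays. All 10 neighbours of this transcript cluster in the array's numbering carry genes of chromosome 5, while Pkm lies on chromosome 9, so it may not measure that gene.

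**Figure D2:**
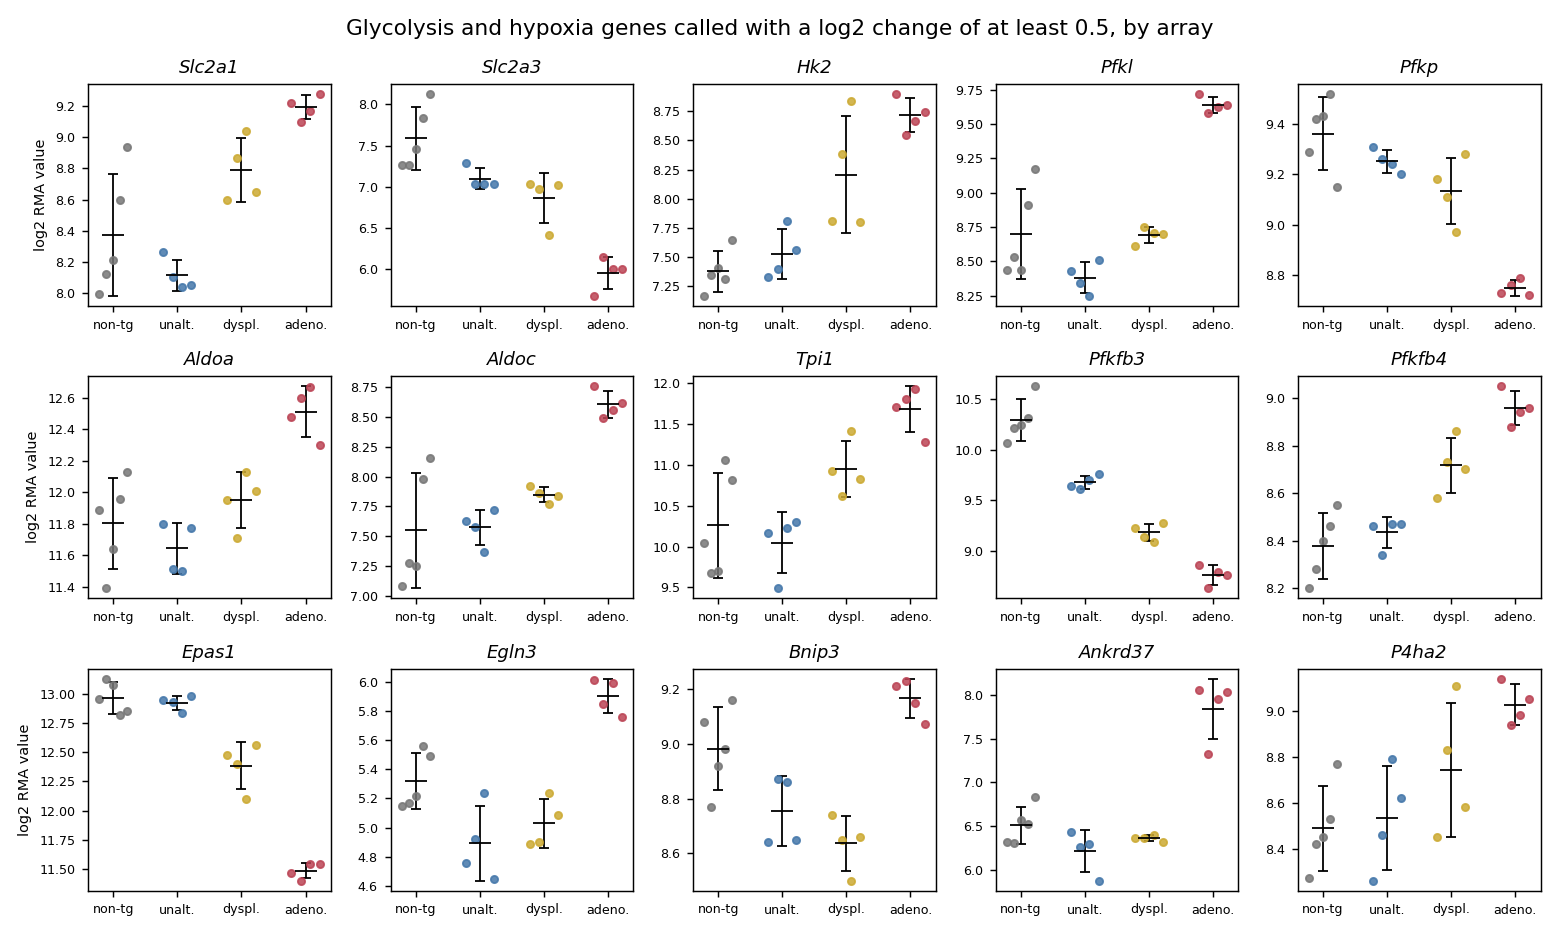
Log2 RMA values (vertical axes) of the 15 members called in some comparison with a log2 change of at least 0.5, 1 point per array, with the mean and SD of each group (5 non-transgenic, 4 unaltered, 4 dysplasia, 4 adenocarcinoma). Axes start at different values. Epas1 falls from about 13 to 11.49 and Ankrd37 stands at 7.33 to 8.05 in adenocarcinoma alone.

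The bifunctional enzymes that make and remove fructose 2,6-bisphosphate, the strongest activator of phosphofructokinase, changed in opposite directions. Pfkfb3, whose kinase activity dominates, read 10.07, 10.22, 10.25, 10.32 and 10.63 in non-transgenic lung, 9.64, 9.61, 9.70 and 9.76 in unaltered tissue, 9.23, 9.14, 9.09 and 9.28 in dysplasia and 8.86, 8.63, 8.79 and 8.76 in adenocarcinoma. No 2 groups overlapped. Pfkfb3 fell by 0.62 ± 0.09 from non-transgenic to unaltered tissue (adjusted p = 0.00111), by 0.49 ± 0.08 from there to dysplasia (adjusted p = 0.000821), in 4 of 4 pairs, and by 0.42 ± 0.10 from dysplasia to adenocarcinoma (adjusted p = 0.00893). From non-transgenic lung to adenocarcinoma the difference was 2.9-fold (-1.54 ± 0.09, adjusted p = 3.4e-09). It was the only member called in all 6 comparisons. The endothelial marker means fell in the same order of groups, and the part of this in the fall of Pfkfb3 was not tested. The step to adenocarcinoma was lost without the arrays of 2 animals (adjusted p = 0.0569, over 18 alternatives from 0.00149).

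Pfkfb4 went the other way, at 8.20, 8.28, 8.40, 8.46 and 8.55 in non-transgenic lung, 8.46, 8.34, 8.47 and 8.47 in unaltered tissue, 8.58, 8.73, 8.86 and 8.70 in dysplasia and 9.05, 8.88, 8.94 and 8.96 in adenocarcinoma. Each lesion group lay above both lesion-free groups, and adenocarcinoma above dysplasia. The step from dysplasia to adenocarcinoma, 0.24 ± 0.08, was not called (adjusted p = 0.0765). It was called in some alternatives, among them quantile (0.0152) and loess (0.0264) normalization. Pfkfb4 was 1.49-fold higher in adenocarcinoma than in non-transgenic lung (0.58 ± 0.08, adjusted p = 2.47e-05) and 1.44-fold higher than in unaltered tissue (0.52 ± 0.08, adjusted p = 0.000148). From unaltered tissue to dysplasia it rose by 0.28 ± 0.07 (adjusted p = 0.0114), in 4 of 4 pairs. That call did not hold with a fixed replicate block (adjusted p = 0.0952), with quantile (0.0527) or loess (0.0651) normalization, without the arrays of 2 animals (0.109) or without unaltered replicate 2 (0.0502), over 19 alternatives from 0.00397. Against non-transgenic lung the rise of 0.34 ± 0.08 in dysplasia (adjusted p = 0.00603) was lost against replicates 4 and 5 alone (adjusted p = 0.125, over 21 alternatives from 0.000679). Pdk1, a kinase that keeps pyruvate out of the mitochondrial cycle and a classic HIF target, was called in no comparison and ranged from 7.75 to 8.69.

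**Figure D3:**
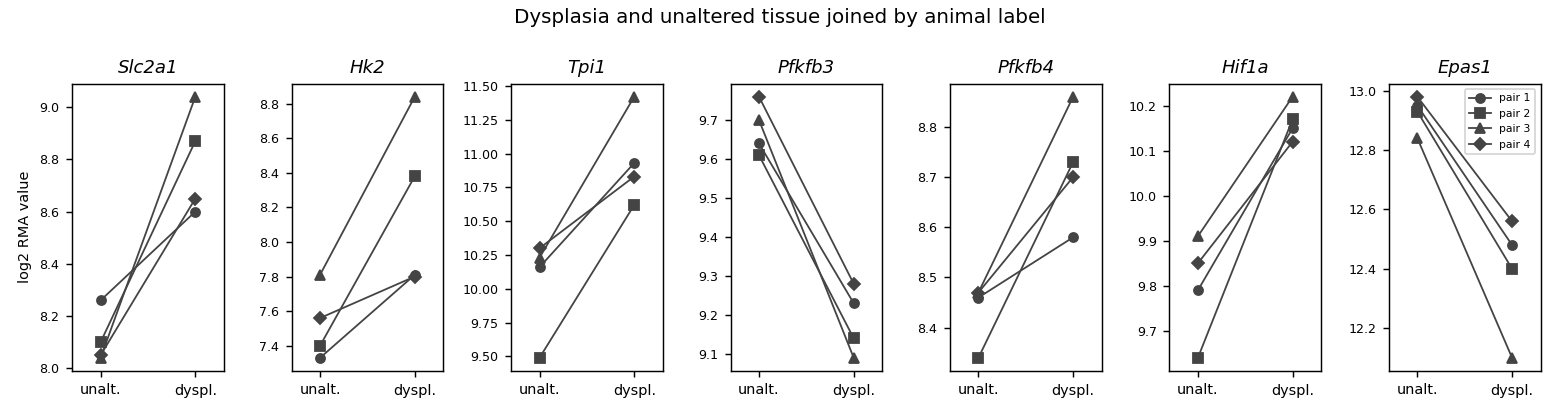
Log2 RMA values (vertical axes) of the 7 members called between dysplasia and unaltered tissue, with lines that join the 2 tissues of each of the 4 animal labels. Slc2a1, Hk2, Tpi1, Pfkfb4 and Hif1a are higher and Pfkfb3 and Epas1 lower in dysplasia in 4 of 4 pairs.

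Among the HIF alpha subunits Hif1a and Epas1 moved apart. Epas1 (HIF-2 alpha), abundant in lung endothelium and alveolar epithelium, read 12.96, 13.13, 13.08, 12.82 and 12.85 in non-transgenic lung, 12.95, 12.93, 12.84 and 12.98 in unaltered tissue, 12.48, 12.40, 12.10 and 12.56 in dysplasia and 11.47, 11.40, 11.54 and 11.54 in adenocarcinoma. Both lesion groups were clear of the lesion-free groups and of each other, while unaltered and non-transgenic arrays overlapped (-0.05 ± 0.09, adjusted p = 0.787). Epas1 fell by 0.54 ± 0.08 from unaltered tissue to dysplasia (adjusted p = 0.000331), by 0.42 to 0.75 in the 4 pairs, and by a further 0.89 ± 0.09 to adenocarcinoma (adjusted p = 1.14e-05). Adenocarcinoma was 2.79-fold below non-transgenic lung (-1.48 ± 0.09, adjusted p = 3.59e-09). These calls held in every alternative run. The 12 endothelial markers had a median log2 difference of -2.34 in that comparison and -0.67 from unaltered tissue to dysplasia, where 11 of 12 fell, and their part in the fall of Epas1 was not tested. In dysplasia, replicate 3 had both the lowest Epas1 (12.10) and the lowest endothelial mean (9.76). From non-transgenic lung to unaltered tissue 5 of the 12 markers fell, with a median log2 difference of -0.37, while Epas1 differed by -0.05.

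**Figure D4:**
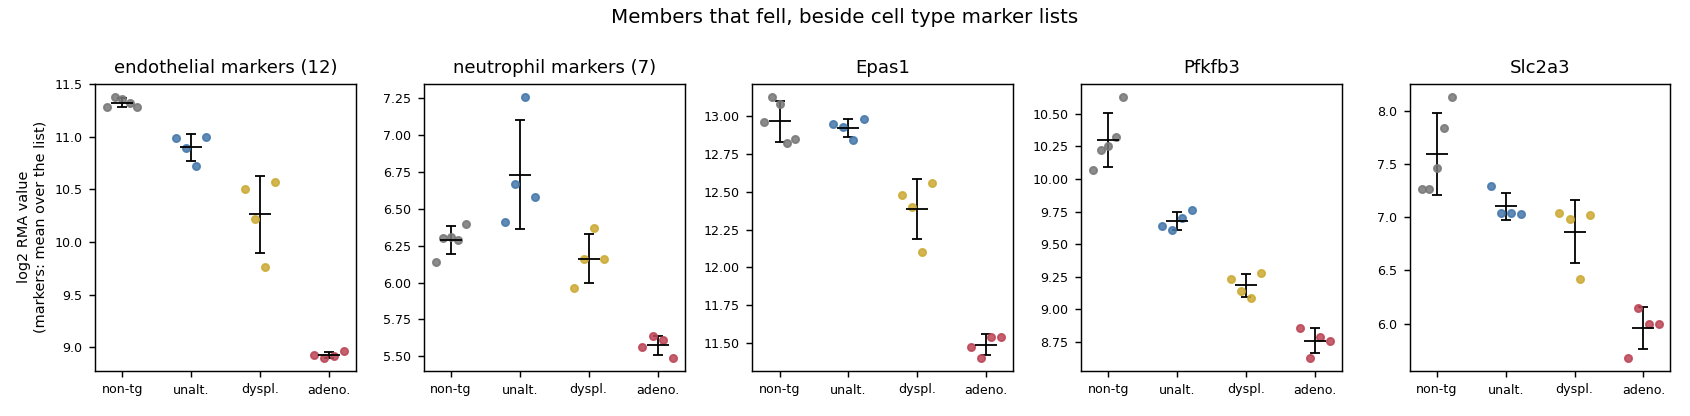
Mean log2 RMA value of 12 endothelial and of 7 neutrophil markers beside Epas1, Pfkfb3 and Slc2a3 (vertical axes, log2, starting at different values), 1 point per array with group mean and SD. The endothelial means drop from 11.28 to 11.38 in non-transgenic lung to 8.90 to 8.96 in adenocarcinoma, and the 3 genes are lowest there too.

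Hif1a, the alpha subunit that most cells carry, ranged from 9.74 to 10.06 in non-transgenic lung, 9.64 to 9.91 in unaltered tissue, 10.12 to 10.22 in dysplasia and 10.17 to 10.44 in adenocarcinoma. Both lesions lay above the lesion-free tissues without overlap. It rose by 0.36 ± 0.07 from unaltered tissue to dysplasia (adjusted p = 0.00258), which a fixed replicate block ended (adjusted p = 0.0547, the highest of 19 alternatives, whose lowest was 0.000722), and by 0.49 ± 0.08 to adenocarcinoma (adjusted p = 0.000297). Against non-transgenic lung, adenocarcinoma was 0.40 ± 0.08 higher (adjusted p = 0.00103), a call lost against replicates 4 and 5 alone (adjusted p = 0.0515, over 21 alternatives from 0.000113). Dysplasia was 0.27 ± 0.08 higher (adjusted p = 0.0282). That call was lost in 10 of 21 alternatives, among them leaving out dysplasia replicate 1, 2 or 3 (adjusted p = 0.0519, 0.0782 and 0.0678) or non-transgenic replicate 1, 2 or 3 (adjusted p = 0.0589, 0.0723 and 0.064), with adjusted p from 0.00296 to 0.389. Protein stability, by which oxygen acts on this factor, is not seen by an RNA measurement. Hif3a stayed between 5.46 and 6.11, low levels below the array medians, and was called nowhere.

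The oxygen sensors Egln3 and Egln1 were both higher in adenocarcinoma than in dysplasia and unaltered tissue, and Egln3 also than in non-transgenic lung. Egln3 (PHD3), a prolyl hydroxylase that HIF itself induces, read 5.15, 5.17, 5.22, 5.56 and 5.49 in non-transgenic lung, 4.76, 4.92, 5.24 and 4.65 in unaltered tissue, 4.89, 4.90, 5.24 and 5.09 in dysplasia and 6.01, 5.85, 5.99 and 5.76 in adenocarcinoma. These are low levels, below the array medians, yet the adenocarcinoma arrays were above all others. Egln3 was 1.83-fold higher in adenocarcinoma than in dysplasia (0.87 ± 0.13, adjusted p = 0.000298), 2.01-fold higher than in unaltered tissue (1.01 ± 0.13, adjusted p = 1.95e-05) and 1.5-fold higher than in non-transgenic lung (0.58 ± 0.12, adjusted p = 0.00159). The last difference was 0.72 without replicates 4 and 5, and against those 2 alone it was 0.38 and not called (adjusted p = 0.0876, over 20 alternatives from 0.000254).

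Egln1 (PHD2), the main oxygen sensor of most cells, lay at 9.42 to 9.73 in unaltered tissue and 9.52 to 9.73 in dysplasia, against 9.75 to 9.97 in non-transgenic lung and 9.88 to 10.04 in adenocarcinoma. It was 0.34 ± 0.08 higher in adenocarcinoma than in dysplasia (adjusted p = 0.00831) and 0.41 ± 0.08 higher than in unaltered tissue (adjusted p = 0.000701). The former was lost without the arrays of 2 animals (adjusted p = 0.0793, over 18 alternatives from 0.00399). Against non-transgenic lung the difference of 0.15 did not pass and the arrays overlapped (adjusted p = 0.156). In unaltered tissue both sensors were called below non-transgenic lung, Egln1 by -0.26 ± 0.07 (adjusted p = 0.0268) and Egln3 by -0.42 ± 0.12 (adjusted p = 0.0327). Neither call was stable: Egln1 lost it in 9 of 21 alternatives, with adjusted p from 0.0145 to 0.308, and Egln3 in 11 of 20, from 0.0117 to 0.136. Single arrays ended the Egln1 call (without non-transgenic replicate 5, adjusted p = 0.0567, or unaltered replicate 2 or 3, 0.0858 and 0.0747) and the Egln3 call (without non-transgenic replicate 4 or 5, 0.069 and 0.0688, or unaltered replicate 1, 2 or 4, 0.0732, 0.0638 and 0.0957).

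Of the other hypoxia targets, Ankrd37 had the clearest rise. Ankrd37, an ankyrin repeat gene that HIF induces, read 6.32, 6.31, 6.57, 6.53 and 6.83 in non-transgenic lung, 6.44, 6.26, 6.30 and 5.88 in unaltered tissue, 6.37, 6.37, 6.40 and 6.32 in dysplasia and 8.05, 7.33, 7.95 and 8.03 in adenocarcinoma. The 3 other groups overlapped, and even the lowest adenocarcinoma array, replicate 2, was above all others. The gene was 2.78-fold higher in adenocarcinoma than in dysplasia (1.47 ± 0.16, adjusted p = 1.49e-05), 3.07-fold higher than in unaltered tissue (1.62 ± 0.16, adjusted p = 1.27e-06) and 2.51-fold higher than in non-transgenic lung (1.33 ± 0.15, adjusted p = 3.92e-06), and all 3 calls held in every alternative run. From unaltered tissue to dysplasia it differed by 0.14 ± 0.14 (adjusted p = 0.512).

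Bnip3, a mitochondrial protein that promotes autophagy, dipped before it rose, with 9.08, 8.77, 8.92, 8.98 and 9.16 in non-transgenic lung, 8.64, 8.87, 8.86 and 8.65 in unaltered tissue, 8.74, 8.65, 8.50 and 8.66 in dysplasia and 9.21, 9.23, 9.15 and 9.07 in adenocarcinoma. Dysplasia lay below non-transgenic lung without overlap (-0.35 ± 0.09, adjusted p = 0.0107). Adenocarcinoma was 0.53 ± 0.09 above dysplasia (adjusted p = 0.00108) and 0.41 ± 0.09 above unaltered tissue (adjusted p = 0.00284), and its arrays overlapped those of non-transgenic lung (0.19 ± 0.09, adjusted p = 0.133).

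P4ha2, a collagen prolyl hydroxylase subunit, gave 8.27, 8.42, 8.45, 8.53 and 8.77 in non-transgenic lung, 8.26, 8.46, 8.79 and 8.62 in unaltered tissue, 8.45, 8.83, 9.11 and 8.58 in dysplasia and 9.14, 8.94, 8.98 and 9.05 in adenocarcinoma. Dysplasia spanned the range from lesion-free tissue to tumour. Adenocarcinoma was 1.45-fold above non-transgenic lung (0.54 ± 0.13, adjusted p = 0.00465) and 1.41-fold above unaltered tissue (0.49 ± 0.14, adjusted p = 0.0132). The first call was lost against replicates 4 and 5 alone (adjusted p = 0.136, over 21 alternatives from 0.000807) and the second without the arrays of 2 animals (adjusted p = 0.0872, over 18 alternatives from 0.00717). Its partner gene P4ha1 ranged from 9.56 to 10.56 and was called nowhere.

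Ndrg1, a stress gene that hypoxia induces, was at 9.07 to 9.19 in adenocarcinoma against 8.56 to 8.91 in non-transgenic lung, a difference of 0.36 ± 0.09 (adjusted p = 0.00484) that was lost against replicates 4 and 5 alone (adjusted p = 0.0672, over 21 alternatives from 0.000363). Against unaltered tissue, Ndrg1 was 0.31 ± 0.09 higher (adjusted p = 0.021), lost without unaltered replicate 1 or 2 or adenocarcinoma replicate 3 (adjusted p = 0.0534, 0.0646 and 0.0618), without the arrays of 2 animals (0.121) and with loess normalization (0.0919), over 18 alternatives from 0.0126. Car9, a carbonic anhydrase used as a marker of hypoxic tumours, stayed at 5.30 to 5.97, below the array medians, and was not called in the fit of all arrays (adenocarcinoma minus non-transgenic 0.22 ± 0.11, adjusted p = 0.147). That difference was called with sex from the Y-linked genes (0.34, adjusted p = 0.0215) and without non-transgenic replicate 5 (0.30, 0.0364). Ddit4 (REDD1), an inhibitor of the mTOR kinase complex, ranged from 6.73 to 8.53, with non-transgenic replicate 5 the highest array. Ddit4 was not called in the fit described above, but was in others. Between dysplasia and unaltered tissue (0.54) it was called with a fixed replicate block (adjusted p = 0.0421), with those 2 groups alone (0.034) and with a sex term from the Y-linked genes (0.0226). Between adenocarcinoma and unaltered tissue (0.71) it was called with those 2 groups alone (adjusted p = 0.00698) and with that sex term (0.00665). Adenocarcinoma minus non-transgenic lung was 0.37 ± 0.28 over all 5 replicates (adjusted p = 0.362), 0.84 against replicates 1 to 3 (0.000338) and -0.34 against replicates 4 and 5 (0.365).

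Members of 1 family were also set against each other within each array. The level of the log2 ratio depends on the probes, so only its change between groups is read. Of 13 such pairs, 10 gave ratios that did not overlap between adenocarcinoma and non-transgenic lung, each with the smallest p that an exact two-sided permutation test of 4 against 5 arrays can give, 0.0159 (0.0206 after adjustment over the 13 pairs). These tests were added after the values had been seen, and ratios without overlap give that p whatever their size. Each of the 10 pairs holds a member called in this comparison, and several share a gene, so the ratios are not separate evidence. Of all genes with 1 symbol 39.2% were called in it. The share of other gene pairs without overlap was not computed, so the count is no result about the families. The Slc2a1 over Slc2a3 ratio shifted by 2.45, from a mean of 0.78 ± 0.06 (SD, n = 5) to 3.23 ± 0.25 (SD, n = 4). Pfkfb3 over Pfkfb4 shifted by -2.12, Hif1a over Epas1 by 1.88, Pfkl over Pfkp by 1.55, Hk1 over Hk2 by -1.16 and P4ha1 over P4ha2 by -0.59.

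The shift of Aldoa over Aldoc, -0.35, did not pass (exact p = 0.127, adjusted 0.138), and neither did that of Slc16a1 over Slc16a3, 0.03 (exact p = 0.81, adjusted 0.81). For the sensors Egln1 over Egln3 the shift was -0.44 (exact p = 0.0317, adjusted 0.0375), and the ratios of the 2 groups overlapped. It stayed under 0.05 in 2 of 9 runs that left out 1 array each, the highest adjusted p being 0.0844. With 1 array fewer the exact test can stay under 0.05 only where ratios do not overlap, so these losses do not measure stability.

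**Figure D5:**
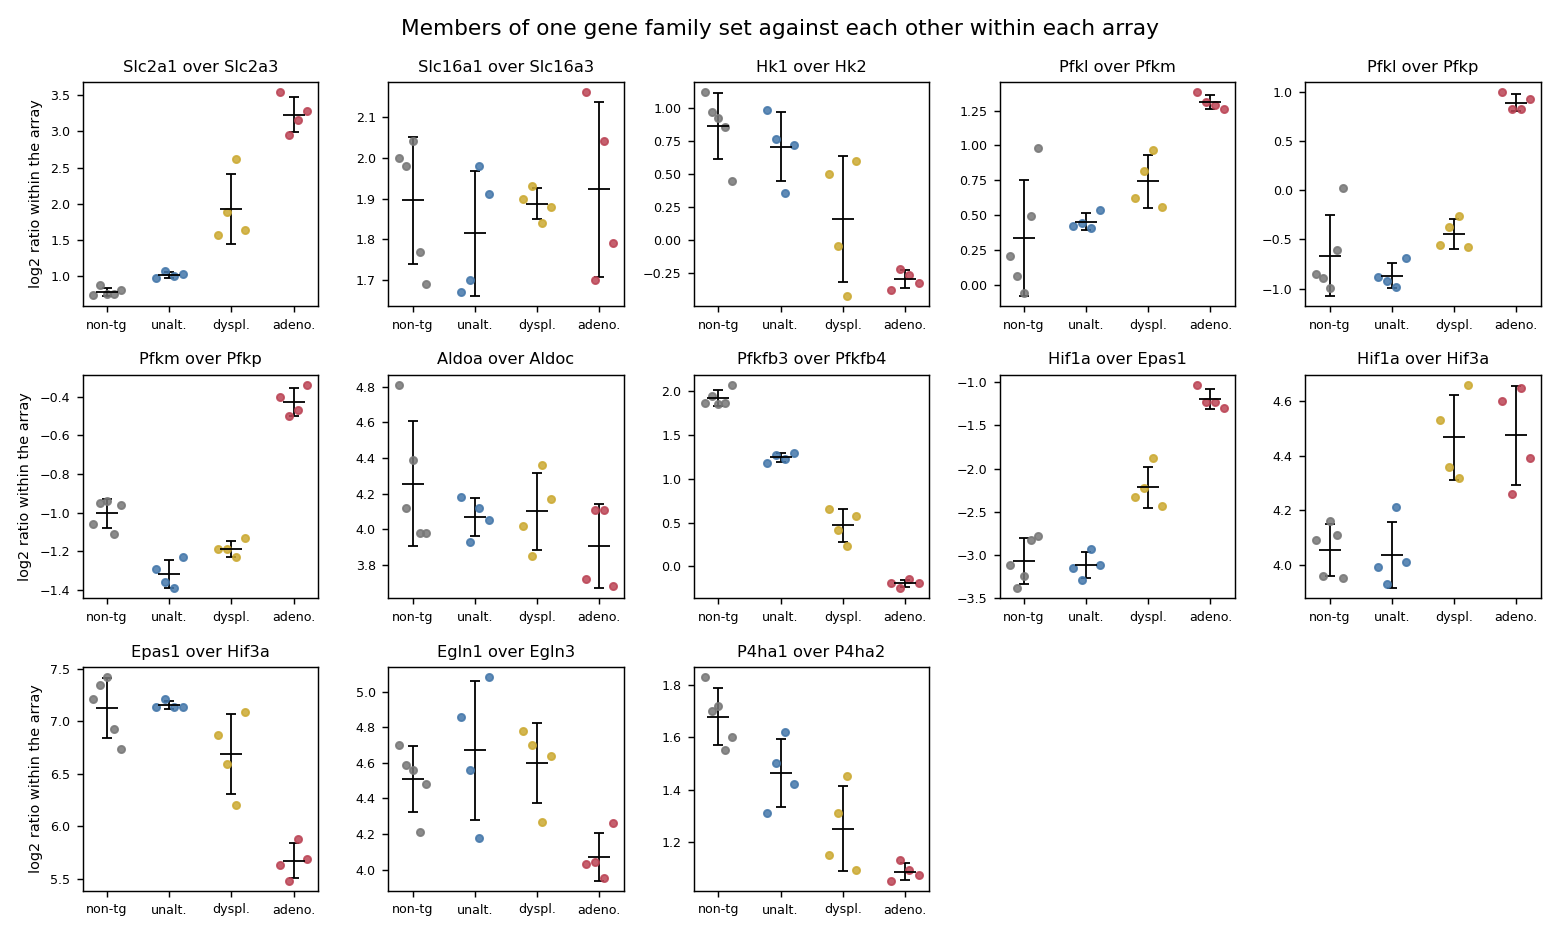
Log2 ratio of 2 members of a gene family within each array (vertical axes), 1 point per array with group mean and SD, for 13 pairs. Slc2a1 over Slc2a3 and Hif1a over Epas1 climb from non-transgenic lung to adenocarcinoma, Pfkfb3 over Pfkfb4 drops, and Slc16a1 over Slc16a3 differs by 0.03 between them.

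In adenocarcinoma against non-transgenic lung, where 17.7% of genes with 1 symbol were called higher and 21.4% lower, other lists of these pathways had the following counts. Of 18 more glycolysis genes 4 rose and 4 fell. The rises included Hkdc1, a hexokinase-like gene (1.25 ± 0.08), and Pfkfb2 (0.66 ± 0.08), another gene of the Pfkfb family, and the falls Eno3, the muscle enolase (-0.81 ± 0.12), and Bpgm, which makes bisphosphoglycerate in red cells (-0.78 ± 0.10). The mean over the 3 red blood cell markers measured was also lower there, 5.82 to 6.04 per array against 7.35 to 7.59. Of the 3, 2 were called lower and 1 was not called. Their part in the fall of Bpgm was not tested. Of 8 gluconeogenesis genes 4 rose, led by pyruvate carboxylase Pcx (1.46 ± 0.17, adjusted p = 4.63e-06) and Fbp2 (1.26 ± 0.17, adjusted p = 2.1e-05). In the pentose phosphate branch, which makes NADPH, 2 of 8 rose: Pgd (1.05 ± 0.07, adjusted p = 1.3e-08) and Taldo1 (0.49 ± 0.09, adjusted p = 0.00033).

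Of 24 other HIF targets measured, 6 rose and 10 fell in adenocarcinoma against non-transgenic lung, beside the same shares of all genes, with a median log2 difference of -0.21 beside 0.01 over all transcript clusters. Plod2, a collagen lysyl hydroxylase, fell 8.56-fold (-3.10 ± 0.13, adjusted p = 1.19e-10), the lipid droplet gene Hilpda 5.63-fold (-2.49 ± 0.15, adjusted p = 2.76e-09) and the endothelin gene Edn1 4.64-fold (-2.21 ± 0.18, adjusted p = 1.14e-07). The haem oxygenase Hmox1 rose 3.48-fold (1.80 ± 0.14, adjusted p = 7.74e-08). Of 10 further genes of the HIF machinery 3 rose and 1 fell, among them another prolyl hydroxylase, Egln2 (0.46 ± 0.07, adjusted p = 6.01e-05) and P4htm, a transmembrane prolyl hydroxylase (-0.67 ± 0.11, adjusted p = 0.000133).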

How the data were processed

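Per the labels, RNA of laser-cut lung cells was depleted of ribosomal RNA, amplified and hybridised to mouse exon arrays, and the authors computed the deposited log2 RMA values in Expression Console for core exons. The submitters' processing notes name GCOS, with no version. The genome build is not given in the sources used here, and depth has no meaning for arrays, whose number limits the precision. Values ran from 1.13 to 14.3. One gene symbol belonged to 14939 of the 23238 transcript clusters, more than 1 to 989, and no symbol to 7310. Members were read at the 1-symbol transcript cluster with the highest mean (only Ldhb had 2).

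From these values limma 3.58.1 (R 4.3.3) fitted 4 group means with the animal as a random block and no sex term, then eBayes. Adjusted p-values (Benjamini-Hochberg) cover the whole table, and 0.05 was the threshold. Same-numbered dysplasia and unaltered arrays come from the same animal label. Their deviations from the group means correlated at 0.207, 0.082, 0.155 and -0.0056. For dysplasia and unaltered arrays of different animal labels the correlations were -0.23 to 0.145, so the 2 ranges overlap. Fold changes are differences of the printed means. Replicates are separate animals or pairs of animals per the labels. The steps were tested on simulated data. Values in every array are printed for members called with a log2 change of at least 0.5 in some comparison, and up to 4 called members are named from each other list. The members, lists and named genes were chosen with earlier results of these data known. Alternatives were labelled sex or sex from Y-linked genes as a covariate, no or a fixed replicate block, the 2 groups alone, quantile or cyclic loess normalization, a filter on low values (at least 6 on 4 arrays), averaged transcript clusters per gene, eBayes with trend and robust, and leaving out arrays. The fixed replicate block was fitted on the dysplasia and unaltered arrays alone. Leaving out non-transgenic replicates 1 to 3 and the family ratio tests were chosen after seeing the data. Promoter windows are from RefSeq, GRCm38.p6.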

Additional observations from a re-analysis of the deposited data

Results flagged for a closer look

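Single arrays stood far from the rest of their group for 5 of 120 combinations of gene and group, where chance gives about 1 in 20, or 6. Slc2a3 was 7.29 on unaltered replicate 1, against 7.03 to 7.04 on the other 3 arrays, and 6.42 on dysplasia replicate 3, against 6.98 to 7.04. Ankrd37 was 7.33 on adenocarcinoma replicate 2, the array labelled female, against 7.95 to 8.05 on the others. Pdk1 was 8.28 on adenocarcinoma replicate 1, against 7.99 to 8.02. Pfkfb4 was 8.34 on unaltered replicate 2, an array of 2 animals, against 8.46 to 8.47.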

How the results depend on the processing

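Of 66 calls of a member in a comparison, 43 held in every alternative run and 23 were lost in at least 1, and no called difference changed sign. Leaving out each array in turn gave 5 to 7 called members for dysplasia minus unaltered tissue, 2 to 5 for unaltered minus non-transgenic, 7 to 10 for dysplasia minus non-transgenic, 11 to 14 for adenocarcinoma minus dysplasia, 18 to 19 for adenocarcinoma minus unaltered and 16 to 19 for adenocarcinoma minus non-transgenic. Sex taken from the Y-linked genes raised the count for dysplasia minus unaltered from 7 to 12 and for dysplasia minus non-transgenic from 8 to 15. With that sex term 24.5% and 22.7% of all transcript clusters were called, against 20.4% and 17.5% without it. That term sets only non-transgenic replicates 4 and 5 apart from the other arrays. Without the arrays of 2 animals, dysplasia minus unaltered had 4, unaltered minus non-transgenic 2 and adenocarcinoma minus dysplasia 6. Unaltered minus non-transgenic, with 4 called members, had 2 when only those groups were fitted, 1 with quantile normalization, 2 when non-transgenic replicate 5 or unaltered replicate 2 was left out, and 13 without non-transgenic replicates 1 to 3. Of all transcript clusters 18.1% were called in the last of these settings. Dysplasia minus non-transgenic had 17 without non-transgenic replicates 4 and 5, where 22.3% of all transcript clusters were called. The cause was not tested.

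Over all transcript clusters, dysplasia minus unaltered called 3504 higher and 1236 lower, against 2218 and 2354 with quantile normalization and 2297 and 2032 with loess. Unaltered minus non-transgenic called 574 higher and 2743 lower, against 971 and 822, and 984 and 971. Adenocarcinoma minus unaltered called 3903 and 2338, against 3052 and 3140 with loess, and adenocarcinoma minus dysplasia 1042 and 1738, against 1507 and 1555 with quantile normalization. Without the arrays of 2 animals 2437 were called for dysplasia minus unaltered instead of 4740, 1099 for unaltered minus non-transgenic instead of 3317 and 1583 for adenocarcinoma minus dysplasia instead of 2780. Unaltered minus non-transgenic also fell to 1912 with labelled sex as a covariate and to 1425 with those groups alone. A fixed replicate block for the animal, fitted on the dysplasia and unaltered arrays alone, moved the calls. Dysplasia minus unaltered called 1881 transcript clusters instead of 4740 and 5 members instead of 7, since it lost Hk2, Pfkfb4 and Hif1a and added Ddit4 (0.54, adjusted p = 0.0421). No other member call changed in that fit. Those 2 groups alone with a random block called 3688 transcript clusters and 10 members, lost Hk2 and also called Ddit4 (adjusted p = 0.034). The shift from 4740 is therefore not that of the fixed block alone.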

Other observations

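Of 10 glycogen genes, 5 were called higher and 3 lower in adenocarcinoma against non-transgenic lung (limma), where 17.7% of genes with 1 symbol were called higher and 21.4% lower. Gys1, the glycogen synthase of muscle and most tissues, rose by 1.12 (log2, adjusted p = 3.24e-08). Glycogenin, Gyg, which primes new glycogen, fell by 1.61 (adjusted p = 1.66e-08), and Pygm, the muscle phosphorylase that breaks it down, fell by 1.65 (adjusted p = 1.32e-08). Around pyruvate dehydrogenase, the gate to the mitochondrial cycle, 2 of 9 measured genes beyond Pdk1 rose and 1 fell, a share near that of all genes called (39.2%). They were the inhibitory kinases Pdk3 (0.49) and Pdk2 (0.26) and the phosphatase subunit Pdpr (-0.38).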
